A study of Mus musculus with 12 samples.

Results

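The immature neuron genes Dcx, Tubb3, Stmn2, Gap43, Islr2, Cntn2, Mapt, Map2, Elavl3 and Elavl4 were followed across 4 groups of mouse brain cells. The 10 genes were taken by their names from the 55862 genes of the deposited expression table, and each name was found once. Expression is given as FPKM, the fragments counted on a gene divided by the length of its exons and by the library size. The labels give the strain of all samples as C57BL/6, whereas the methods of the study give C57BL/6 for the astrocytes and C57BL/6J for P56-NPCs and P0-NPCs. Each group had 3 samples. The question behind the comparisons was how far astrocytes kept as spheres resembled progenitor cells of the brain. ASTs, the negative control, were primary astrocytes of the newborn cerebral cortex grown as a monolayer in medium with serum and taken at incubation day 0. A-iSCs were such astrocytes after 5 days of incubation as spheres on agarose. P56-NPCs and P0-NPCs, the positive controls, were cells dissociated from the subependymal zone of the adult brain at postnatal day 56 and from the hippocampus at postnatal day 0, and no sorting step is described for either. The labels name no other allele or agent in any group, and whether a sample came from 1 animal or from a pool is not given in the sources used here.

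A newborn neuron leaves the cell cycle, migrates and grows its first processes, and each of these steps rests on a rebuilt microtubule skeleton. Tubb3 is the beta-tubulin of neurons, Dcx, Mapt and Map2 encode proteins that bind and stabilise microtubules, and Stmn2 encodes a stathmin that promotes their disassembly in the growth cone. Gap43 is a growth cone protein of growing axons, Islr2 and Cntn2 encode cell surface proteins of growing axons, and Elavl3 and Elavl4 encode RNA-binding proteins of the neuronal Hu family. Several of these genes stay on in mature neurons, above all Map2, Mapt and Elavl3, whereas Dcx is shut off as the neuron matures. In the adult brain the subependymal zone and the dentate gyrus of the hippocampus are the regions known for newborn neurons.

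Between 17077780 and 24452419 fragments were counted on genes in a sample, and the FPKM had been scaled between samples by the authors. The values of AST replicate 2 and A-iSC replicate 3 lay farthest from the other samples of their groups, and the counts of the 10 genes in A-iSCs against ASTs are given with and without them. In the other comparisons these counts were the same when any single sample was left out. All 8 astrocyte markers listed here were at 1 FPKM or more in each AST sample, with Gfap at 29.9 FPKM ± 2.30 (SD, n = 3), but the smooth muscle actin gene Acta2 stood at 1848 FPKM ± 231 there. P56-NPCs held 10825 to 12337 summed FPKM over 6 oligodendrocyte markers, against at most 75.9 in a sample of any other group, and 17.1% ± 0.55 (SD, n = 3) of their fragments came from mitochondrial genes, against group means of 3.601% to 5.19% elsewhere. These are bulk samples, in which fewer cells of a type and less RNA per cell cannot be told apart. The labels do not say whether the samples of a group came from separate cultures or animals, so the p-values measure only the spread between these samples, which may be technical.

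The sequences ahead of the annotated start sites are shown for the 3 genes with the widest gaps between P0-NPCs and P56-NPCs, Dcx, Islr2 and Tubb3, and for Elavl3, with the narrowest gap among the genes higher in P0-NPCs. They were taken from the RefSeq promoter windows of GRCm38.p6, which hold 250 bases before and 50 after a start site, and cut where an exon of the GENCODE M21 annotation begins. Windows were found for 7 of the 10 genes, Dcx, Tubb3, Islr2, Cntn2, Map2, Elavl3 and Elavl4. Capitals mark GGGCGG (the GC box), TATAAA (the TATA box) and CAGCTG (an E-box of proneural factors), read on both strands.
Dcx: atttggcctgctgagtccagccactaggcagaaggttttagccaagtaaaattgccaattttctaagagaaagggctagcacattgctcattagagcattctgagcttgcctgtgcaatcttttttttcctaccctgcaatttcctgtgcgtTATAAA
Islr2: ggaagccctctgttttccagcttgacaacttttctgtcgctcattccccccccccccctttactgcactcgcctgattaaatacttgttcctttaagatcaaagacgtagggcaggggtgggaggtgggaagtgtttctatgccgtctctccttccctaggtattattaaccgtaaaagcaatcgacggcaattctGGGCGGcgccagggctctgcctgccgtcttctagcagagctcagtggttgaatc
Tubb3: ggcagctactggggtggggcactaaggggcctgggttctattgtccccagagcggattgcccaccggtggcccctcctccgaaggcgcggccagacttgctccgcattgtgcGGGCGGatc
Elavl3: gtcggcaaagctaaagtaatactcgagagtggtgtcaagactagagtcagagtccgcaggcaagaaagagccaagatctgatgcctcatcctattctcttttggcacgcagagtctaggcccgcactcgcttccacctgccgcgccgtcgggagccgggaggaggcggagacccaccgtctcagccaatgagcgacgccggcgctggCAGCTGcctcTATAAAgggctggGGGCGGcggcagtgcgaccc
The Dcx stretch is chrX:143933312-143933469 on the minus strand, the Islr2 stretch chr9:58204320-58204569 on the minus strand, the Tubb3 stretch chr8:123411303-123411423 on the plus strand and the Elavl3 stretch chr9:22052024-22052273 on the minus strand. Over the whole windows, GGGCGG was found for Tubb3, Elavl3, Islr2 and Map2 and for 38.2% of the 27025 genes with a window, and TATAAA was found for Dcx and Elavl3 and for 15.7% of all genes. A gene may have several windows, and the 7 genes had 13. The E-box CANNTG, which contains CAGCTG and CAGATG, was found for 4 of the 7 genes, Cntn2, Elavl3, Elavl4 and Islr2, and for 74.99% of all genes. CAGCTG stood in windows of Elavl3 and Elavl4 (18.3% of all genes) and CAGATG in those of Elavl4 (19.2%). Of the 2 parts of the RE1 element, which binds the repressor REST, TCAGCACC was found for Tubb3 alone, beyond the stretch shown (1.85% of all genes), and GGACAG for Tubb3 and Map2 (24.7%). No motif was shared by all 7 genes, and a match or its lack describes only the letters of these windows.

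The tubulin gene Tubb3 (ENSMUSG00000062380, chr8:123411424-123422015 on GRCm38, plus strand, with 4 exon blocks) was the highest of the 10 genes in P0-NPCs and was well expressed in every sample. Tubb3 measured 36.0, 51.3 and 34.7 FPKM in AST replicates 1 to 3, and 46.3, 39.97 and 27.3 FPKM in A-iSC replicates 1 to 3. Tubb3 measured 75.4, 85.0 and 69.9 FPKM in P56-NPCs and 608, 566 and 728 FPKM in P0-NPCs. The AST and A-iSC samples overlapped, every P56-NPC sample lay above both, and every P0-NPC sample lay far above the rest. Even in ASTs Tubb3 stood at the 90.4th to 93.0th percentile of the protein-coding genes with a fragment, so it was among the abundant transcripts of these cultures.

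Dcx (ENSMUSG00000031285, chrX:143855842-143933311, minus strand, 7 exon blocks), whose product doublecortin bundles microtubules in migrating neurons, had the widest range apart from Cntn2. In ASTs Dcx was low, at 0.108, 0.0819 and 0.0596 FPKM from 14 to 23 fragments a sample. A-iSCs held 2.87, 2.67 and 3.04 FPKM of Dcx, with 732 to 1031 fragments, and P56-NPCs 3.21, 3.78 and 3.02 FPKM. P0-NPCs held 80.4, 90.5 and 93.2 FPKM. The A-iSC and P56-NPC samples overlapped, and no other groups did for this gene. The mean of Dcx in P0-NPCs was 26.4 times that in P56-NPCs and 30.8 times that in A-iSCs.

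Mapt (ENSMUSG00000018411, chr11:104231390-104332090, plus strand, 16 exon blocks), which encodes the axonal protein tau, separated the 4 groups without overlap. Its values were 0.634, 0.465 and 0.686 FPKM in ASTs and 5.73, 6.52 and 9.36 FPKM in A-iSCs. P56-NPCs held 63.3, 66.7 and 62.2 FPKM of Mapt, and P0-NPCs 114, 131 and 129 FPKM. A-iSC replicate 3 was the highest of its group for Mapt. Map2 (ENSMUSG00000015222, chr1:66175273-66442583, plus strand, 24 exon blocks), which encodes the microtubule-associated protein of dendrites and cell bodies, was the only one of the 10 genes with its highest mean in P56-NPCs. Map2 stood at 6.79, 5.40 and 6.57 FPKM in ASTs and at 7.51, 8.13 and 14.1 FPKM in A-iSCs, where replicate 3 was again the highest. In P56-NPCs Map2 reached 71.7, 77.9 and 63.7 FPKM, and in P0-NPCs 36.9, 48.5 and 39.7 FPKM. The groups did not overlap, although the gap between the highest AST sample and the lowest A-iSC sample was small.

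Stmn2 (ENSMUSG00000027500, chr3:8509360-8561606, plus strand, 5 exon blocks) had an order of groups that no other gene shared, with ASTs in second place. It measured 48.4, 66.7 and 46.3 FPKM in ASTs and 8.85, 7.08 and 5.55 FPKM in A-iSCs. Stmn2 measured 18.2, 19.3 and 17.1 FPKM in P56-NPCs and 94.7, 104 and 129 FPKM in P0-NPCs. No groups overlapped, and the AST mean was 7.52 times that of A-iSCs and 2.96 times that of P56-NPCs. Stmn2 in ASTs rested on 4550 to 7575 fragments a sample, and AST replicate 2 was the highest of its group both for Stmn2 and for Tubb3.

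Gap43 (ENSMUSG00000047261, chr16:42248442-42340651, minus strand, 4 exon blocks) was the gene of the 10 whose profile lay closest to the mean profile of all of them. Its levels were 22.1, 28.0 and 22.9 FPKM in ASTs and 31.3, 32.2 and 31.4 FPKM in A-iSCs. P56-NPCs held 125, 134 and 113 FPKM of Gap43 and P0-NPCs 182, 187 and 239.6 FPKM. The 4 groups stood apart from each other, with only a narrow gap between ASTs and A-iSCs.

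Both genes of axonal surface proteins had high levels in the cells taken from the brain and low ones in the cultures. Islr2 (ENSMUSG00000051243, chr9:58196297-58204319, minus strand, 7 exon blocks), an immunoglobulin and leucine-rich repeat protein of growing axons, measured 0.332, 0.258 and 0.273 FPKM in ASTs and 1.06, 1.04 and 0.737 FPKM in A-iSCs. Islr2 measured 8.94, 10.4 and 7.59 FPKM in P56-NPCs and 237, 198 and 242 FPKM in P0-NPCs. Each group lay above the one before it. Islr2 shares 181 exonic bases with its neighbour Islr on the same strand, which reached 29.1 FPKM, and 55 bases with 1600029O15Rik on the other strand, so its low values in ASTs and A-iSCs are uncertain, and how the counting treated shared bases is not given in the sources used here. Cntn2 (ENSMUSG00000053024, chr1:132509427-132543256, minus strand, 26 exon blocks), the contactin also known as transient axonal glycoprotein, measured 0.0321, 0.0477 and 0.0810 FPKM in ASTs and 0.101, 0.127 and 0.0722 FPKM in A-iSCs. These values rested on 5 to 14 and on 18 to 28 fragments a sample, and the samples of both groups overlapped. Cntn2 reached 44.9, 43.6 and 43.3 FPKM in P56-NPCs and 100.3, 80.7 and 95.4 FPKM in P0-NPCs. Its P56-NPC mean was 439 times the A-iSC mean, the largest such ratio of the 10 genes. Beside its role in axons, Cntn2 is also known to be made by myelinating glia. Oligodendrocyte markers were high in P56-NPCs, and the part of those cells in its level was not tested.

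The RNA-binding proteins followed tau closely. Elavl3 (ENSMUSG00000003410, chr9:22015005-22052023, minus strand, 7 exon blocks) stood at 1.04, 0.995 and 0.875 FPKM in ASTs and at 4.98, 3.78 and 4.78 FPKM in A-iSCs. Elavl3 stood at 32.3, 34.4 and 32.8 FPKM in P56-NPCs and at 43.2, 50.8 and 48.9 FPKM in P0-NPCs. Elavl4 (ENSMUSG00000028546, chr4:110203722-110351909, minus strand, 16 exon blocks) was the lowest of the 10 genes in P0-NPCs. It measured 0.177, 0.156 and 0.0700 FPKM in ASTs, from 7 to 17 fragments a sample, and 1.24, 1.15 and 1.57 FPKM in A-iSCs. P56-NPCs held 3.81, 4.04 and 3.09 FPKM of Elavl4 and P0-NPCs 5.97, 7.91 and 7.20 FPKM. For both Elavl genes the samples of the 4 groups stood without overlap in the rising order ASTs, A-iSCs, P56-NPCs, P0-NPCs.

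**Figure D1:**
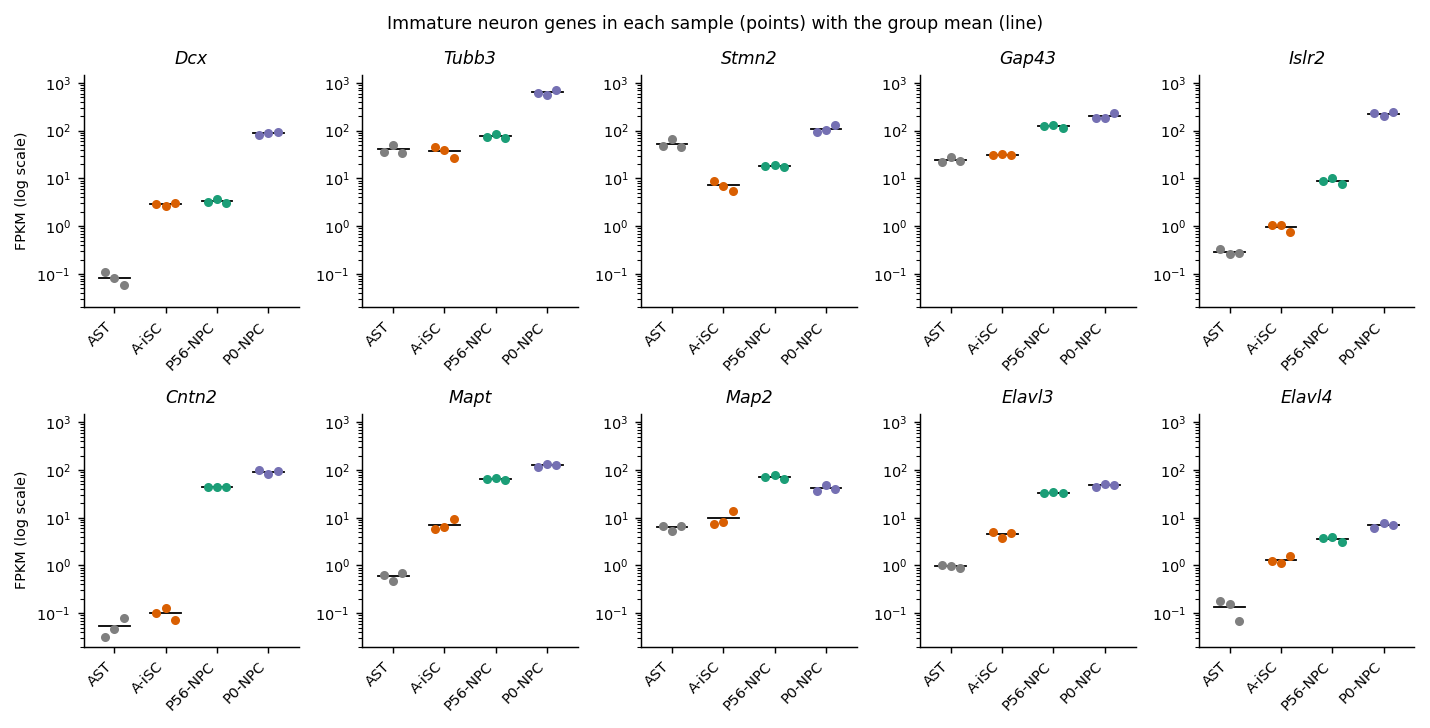
FPKM of each of the 10 immature neuron genes on a log axis, by group, with 1 point per sample (3 a group) and a line at the group mean. For 7 genes the means rise from ASTs over A-iSCs and P56-NPCs to P0-NPCs; Tubb3, Stmn2 and Map2 keep other orders.

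Across the groups, 7 of the 10 genes had the order P0-NPCs, P56-NPCs, A-iSCs, ASTs from high to low, an order found in 8.40% of the 16568 genes with a mean of at least 1 FPKM in any group. Tubb3 had the AST mean above the A-iSC mean, an order that turned with scaling by library size alone or by the upper quartile. Stmn2 had ASTs in second place, and Map2 had P56-NPCs first. Neighbours in the order overlapped in 3 cases, which were P56-NPCs with A-iSCs for Dcx, ASTs with A-iSCs for Tubb3 and A-iSCs with ASTs for Cntn2. Over all these genes, neighbours overlapped in 44.0% of cases, against 3 of 30 for the 10 genes. The spread between samples of a group was widest in the cultures, with a median coefficient of variation over the 10 genes of 20.1% in ASTs and 21.1% in A-iSCs, against 9.13% in P56-NPCs and 12.2% in P0-NPCs.

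In A-iSCs compared with ASTs, Dcx, Mapt, Elavl3, Elavl4 and Gap43 were higher and Stmn2 was lower. Of the 10 genes, 8 passed the filter of a mean of at least 1 FPKM in at least 1 of the groups, and 6 of these differed at an adjusted p under 0.05 by limma. Over all genes tested, 54.8% differed, 25.2% were higher and 29.6% lower. Dcx, Mapt, Elavl3 and Elavl4 had AST means under 1 FPKM and passed the filter only through A-iSCs, where they are high, so the 6 of 8 is a description and cannot be read against that background. The mean of Dcx was 34.3 times higher, that of Mapt 12.1 times and that of Elavl4 9.84 times. On the log2(FPKM + 1) scale, which understates the change of genes with low values, the difference was 1.83 ± 0.11 (SE) for Dcx (adjusted p = 1.39e-05) and 2.34 ± 0.17 for Mapt (adjusted p = 4.06e-05). It was 1.48 ± 0.12 for Elavl3 (adjusted p = 7.04e-05) and 1.03 ± 0.12 for Elavl4 (adjusted p = 0.000377). Stmn2 was lower by 2.75 on this scale, with a difference of -2.75 ± 0.20 (adjusted p = 3.62e-05).

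Between the cultures the smaller differences were as follows. Gap43 was higher by 0.37 ± 0.12 (adjusted p = 0.0377), and this call was lost when either of 2 AST or 2 A-iSC samples was left out. Map2 had a difference of 0.55 with an interval of 0.02 to 1.08 at 95% and an adjusted p of 0.0751, and it was called higher with scaling by library size alone (0.74, adjusted p = 0.0308). Tubb3 had a difference of -0.11 with an interval of -0.66 to 0.43 and an adjusted p of 0.706. Islr2 and Cntn2 did not pass the filter. Without it, Islr2 differed by 0.59 (adjusted p = 0.00727) and Cntn2 by 0.06 (adjusted p = 0.215). Without A-iSC replicate 3, 9 of the 10 genes passed the filter, 6 were higher and 1 was lower, and without AST replicate 2 the counts were 5 higher and 1 lower.

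Some markers of other cells moved in the same direction between the cultures. Over all genes tested between the cultures, 25.2% were higher and 29.6% lower in A-iSCs. The summed FPKM of 6 microglia markers was 21.2 to 26.4 in ASTs and 201 to 265 in A-iSCs, with all 6 of 6 higher. Among these, P2ry12 had an AST mean of 0.670 FPKM and passed the filter only through A-iSCs. Of 6 oligodendrocyte precursor markers, 4 were higher and 1 lower, with sums of 106 to 128 FPKM in ASTs against 147 to 172 FPKM in A-iSCs, and the lower one was no longer called without AST replicate 1 or 3. The precursor markers Sox10, Pdgfra and Gpr17, at 0.279, 0.373 and 0.0177 FPKM in ASTs, stood at 11.2, 5.50 and 1.85 FPKM in A-iSCs and passed the filter only there. Astrocyte markers rose in 7 of 8, with sums of 143 to 161 FPKM in ASTs against 1211 to 2466 FPKM in A-iSCs, the highest of which was A-iSC replicate 3, the library highest for Mapt and Map2. Proliferation markers fell in 5 of 5 and markers of mural cells and fibroblasts in 4 of 4 tested. The part of these cells in the levels of the immature neuron genes was not tested.

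P0-NPCs exceeded ASTs in all 10 immature neuron genes. Limma called 10 of 10 higher, where 79.0% of all genes tested differed, 38.1% higher and 40.9% lower. Cntn2, Dcx and Islr2 had means 1719, 1057 and 784 times those of ASTs, although the low AST values rest on few fragments. On the log2(FPKM + 1) scale Islr2 differed by 7.45 ± 0.10 (adjusted p = 1.03e-08), Cntn2 by 6.46 ± 0.10 (adjusted p = 1.15e-08) and Dcx by 6.36 ± 0.09 (adjusted p = 1.03e-08). Mapt differed by 6.30 ± 0.09 (adjusted p = 1.15e-08). The narrowest difference was that of Stmn2, at 1.014 ± 0.17 (adjusted p = 0.000824), with a mean 2.03 times that of ASTs. Dcx, Islr2, Cntn2, Mapt, Elavl3 and Elavl4 passed the filter against ASTs only through the cells taken from the brain, so their part in the counts against ASTs is a description too, as is that of Islr2 and Cntn2 against A-iSCs.

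P56-NPCs exceeded ASTs in 9 of the genes and fell below them in Stmn2. Here 78.9% of all genes tested differed, 39.1% higher and 39.8% lower. Cntn2 led with 5.41 ± 0.06 (adjusted p = 6.32e-09), followed by Mapt with 5.35 ± 0.08 (adjusted p = 1.21e-08) and Elavl3 with 4.12 ± 0.07 (adjusted p = 1.75e-08). Dcx differed by 1.997 ± 0.09 (adjusted p = 1.18e-06) and Tubb3 by 0.92 ± 0.16 (adjusted p = 0.00134). Stmn2 had a difference of -1.50 ± 0.14 (adjusted p = 4.98e-05). The comparisons with ASTs share the same 3 AST samples, so their values are set side by side and no overlap between them is counted.

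Compared with A-iSCs, P0-NPCs were higher in 10 of the 10 genes and P56-NPCs in 9. The backgrounds were 65.1% of genes differing for P0-NPCs (33.6% higher and 31.5% lower) and 61.0% for P56-NPCs (30.9% higher and 30.1% lower), and both comparisons use the same A-iSC samples. The A-iSC mean was 0.419% of the P0-NPC mean for Islr2 and 0.109% for Cntn2. For Dcx it was 3.25%, for Mapt 5.78% and for Tubb3 5.97%. The nearest approach was that of Map2, at 23.8%, followed by Elavl4 at 18.8% and Gap43 at 15.6%. Against P56-NPCs the A-iSC mean of Dcx was 85.7% of the P56-NPC mean while that of Cntn2 was 0.228%. For Dcx the difference between P56-NPCs and A-iSCs was 0.16 with an interval of -0.08 to 0.41 at 95% (adjusted p = 0.212), which does not show that the levels were the same. With scaling by library size alone it turned to -0.252 (adjusted p = 0.0503). Cntn2 differed by 5.35 ± 0.08 (adjusted p = 6.35e-08), Mapt by 3.01 ± 0.16 (adjusted p = 7.25e-06) and Map2 by 2.77 ± 0.22 (adjusted p = 4.49e-05). Tubb3, at 1.03 ± 0.20 (adjusted p = 0.00333), was no longer called when samples were scaled by library size alone, a setting that moved the median of all genes in this comparison to -0.49 (Tubb3 0.48, adjusted p = 0.0532).

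Between the positive controls, 9 genes were higher in P0-NPCs and Map2 was higher in P56-NPCs. Of all genes tested, 78.8% differed, 39.0% higher in P0-NPCs and 39.7% lower. The excess ranged widely among these genes. Islr2 (4.51 ± 0.12, adjusted p = 8.4e-08) and Dcx (4.36 ± 0.09, adjusted p = 2.97e-08) were 25.2 and 26.4 times higher by their means. Tubb3 (3.03 ± 0.12, adjusted p = 3.77e-07) and Stmn2 (2.51 ± 0.11, adjusted p = 8.36e-07) were 8.26 and 6.00 times higher. Cntn2, Mapt, Elavl4, Gap43 and Elavl3 were 2.10, 1.95, 1.93, 1.64 and 1.44 times higher, and each was called. Map2 had a difference of -0.76 ± 0.12 (adjusted p = 0.000537), with a P56-NPC mean 1.71 times that of P0-NPCs. With scaling by library size alone, which moved the median of all genes to 0.53, the difference of Map2 became -0.14 and was not called (adjusted p = 0.267), while the other 9 genes were called higher. The mitochondrial share and the oligodendrocyte markers also differed between these groups, as given above, and their part in the values was not tested. The tissue differed together with the age, so hippocampus against subependymal zone and day 0 against day 56 cannot be told apart.

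**Figure D2:**
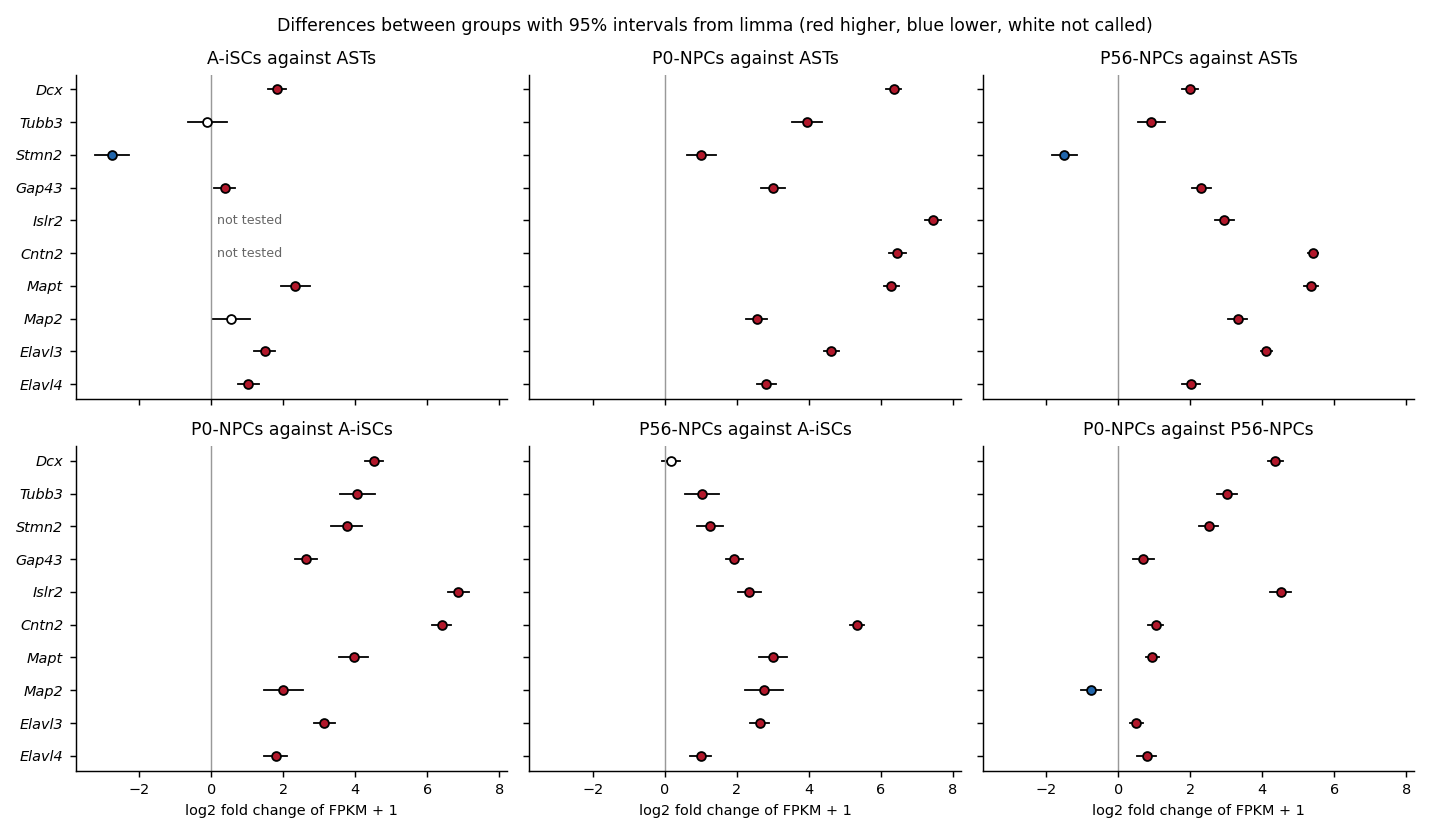
Difference in log2(FPKM + 1) of each gene in the 6 comparisons, first group minus second, with 95% intervals from limma; red points were called higher, blue points lower and white points were not called at an adjusted p under 0.05. All 10 genes lie right of 0 for P0-NPCs against ASTs and against A-iSCs, and the genes left of 0 that were called are Stmn2 (A-iSCs and P56-NPCs against ASTs) and Map2 (P0-NPCs against P56-NPCs).

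The mixture of the 10 genes also differed between groups, which is a measure within a sample that does not depend on the scaling between samples. In ASTs, Stmn2, Tubb3 and Gap43 made up 93.2% ± 1.70 (SD, n = 3) of the summed FPKM of the 10 genes, and in A-iSCs 73.8% ± 7.15, with the lowest share, 65.6%, in replicate 3. In P56-NPCs these 3 genes held 48.9% ± 0.78 and in P0-NPCs 60.0% ± 2.24. Stmn2 alone was 42.2% of the sum in ASTs and 6.87% in A-iSCs, whereas Mapt was 0.487% and 7.04% and Dcx 0.0667% and 2.77%. The summed FPKM of the 10 genes was of the same order in both cultures, 113 to 153 in ASTs and 97.9 to 110.0 in A-iSCs, against 416 to 479 in P56-NPCs and 1465 to 1752 in P0-NPCs. Islr2 held 14.4% of the sum in P0-NPCs and 1.997% in P56-NPCs, whereas Map2 held 2.68% and 15.9%. The ratio of Dcx, a gene of young neurons, to Map2 was 2.13 ± 0.24 in P0-NPCs, 0.0469 ± 0.0020 in P56-NPCs, 0.309 ± 0.085 in A-iSCs and 0.0134 ± 0.0038 in ASTs. The samples of these 4 groups did not overlap in this ratio.

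**Figure D3:**
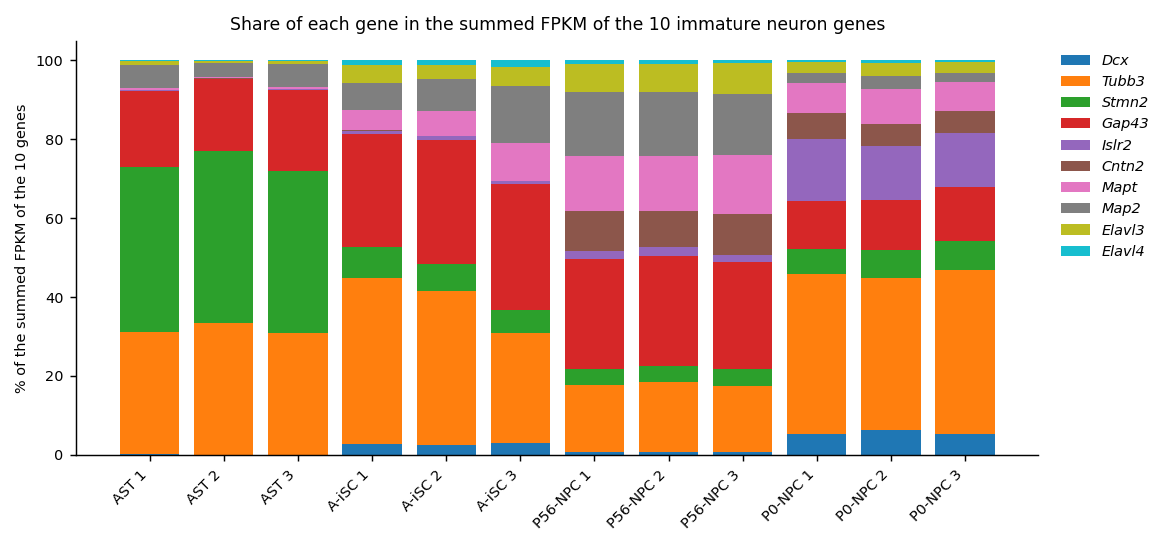
Share of each of the 10 genes in their summed FPKM, as stacked bars from 0 to 100%, 1 bar per sample. Stmn2, Tubb3 and Gap43 fill most of the AST bars, Map2 and Mapt widen in P56-NPCs, and Islr2 and Dcx widen in P0-NPCs.

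Apart from Islr2, for which no family was set up, each gene was next set against the other genes of its family within the same sample. The share of the 4 Elavl genes held by Elavl3 and Elavl4 was 8.14% ± 1.02 in ASTs, 47.0% ± 2.47 in A-iSCs, 84.2% ± 0.26 in P56-NPCs and 74.4% ± 1.66 in P0-NPCs (SD, n = 3). The rest in ASTs was mainly Elavl1, the member of the family made in most cells, at 11.8 FPKM there and 5.71 FPKM in A-iSCs. In P0-NPCs the rest was Elavl2 at 11.05 FPKM and Elavl1 at 7.65 FPKM, against 1.49 and 5.42 FPKM in P56-NPCs. Elavl2 is counted below among the other genes of newborn and migrating neurons, so the rest is not all from genes of other cells. Of Dcx and its kinase relatives Dclk1, Dclk2 and Dclk3, Dcx took 0.676% ± 0.193 in ASTs, 7.79% ± 0.63 in A-iSCs, 10.03% ± 0.67 in P56-NPCs and 64.1% ± 1.92 in P0-NPCs. Dclk1 itself was 20.8 FPKM in A-iSCs, 19.0 FPKM in P56-NPCs and 23.1 FPKM in P0-NPCs. Mapt and Map2 held 20.8% ± 1.11 of their sum with Map4, the relative found in most cell types, in ASTs, 43.4% ± 4.21 in A-iSCs, 54.8% ± 1.07 in P56-NPCs and 85.2% ± 0.01 in P0-NPCs. Map4 was 111 FPKM in P56-NPCs and 21.8 to 28.8 FPKM in the other groups.

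Tubb3 and Stmn2 behaved differently within their families. Tubb3 was 2.37% ± 0.26 of the 8 beta-tubulin genes in ASTs and 4.48% ± 0.93 in A-iSCs, with no overlap of samples, although its level overlapped. Among the other beta-tubulins, Tubb5 had means of 449 FPKM in ASTs and 184 in A-iSCs, Tubb6 of 226 and 30.6 FPKM and Tubb4a of 8.03 and 12.04 FPKM. Tubb3 held 6.998% ± 0.31 in P56-NPCs, where Tubb4a led with 512 FPKM, and 20.1% ± 0.88 in P0-NPCs, where Tubb2b led with 1250.2 FPKM. Stmn2 was 43.4% ± 1.76 of the 4 stathmins in ASTs, 5.63% ± 1.09 in A-iSCs, 3.48% ± 0.27 in P56-NPCs and 11.0003% ± 0.85 in P0-NPCs. Stmn3 and Stmn4 moved against Stmn2 between the cultures and were higher in A-iSCs, by 1.28 (adjusted p = 0.00111) and 2.17 (adjusted p = 3.82e-05) on the log2(FPKM + 1) scale by limma. Cntn2 was 4.16% ± 1.39 of the 6 contactins in ASTs, 3.36% ± 1.94 in A-iSCs, 54.3% ± 2.06 in P56-NPCs and 90.3% ± 2.001 in P0-NPCs, and Cntn1 made up most of the rest in P56-NPCs with 34.8 FPKM. Gap43 was 5.04% ± 0.19 of the growth cone substrates of protein kinase C, a set with Basp1, Marcks and Marcksl1, in ASTs, 7.40% ± 0.64 in A-iSCs, 28.6% ± 0.83 in P56-NPCs and 12.6% ± 0.65 in P0-NPCs. For a share, the exact two-sided permutation test of 3 samples against 3 cannot give a p below 0.1 (0.102 after Benjamini-Hochberg adjustment over the 42 comparisons made), so no difference between shares could pass 0.05. The samples of A-iSCs and ASTs overlapped in the share of Cntn2, with p = 0.6 by this exact permutation test.

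**Figure D4:**
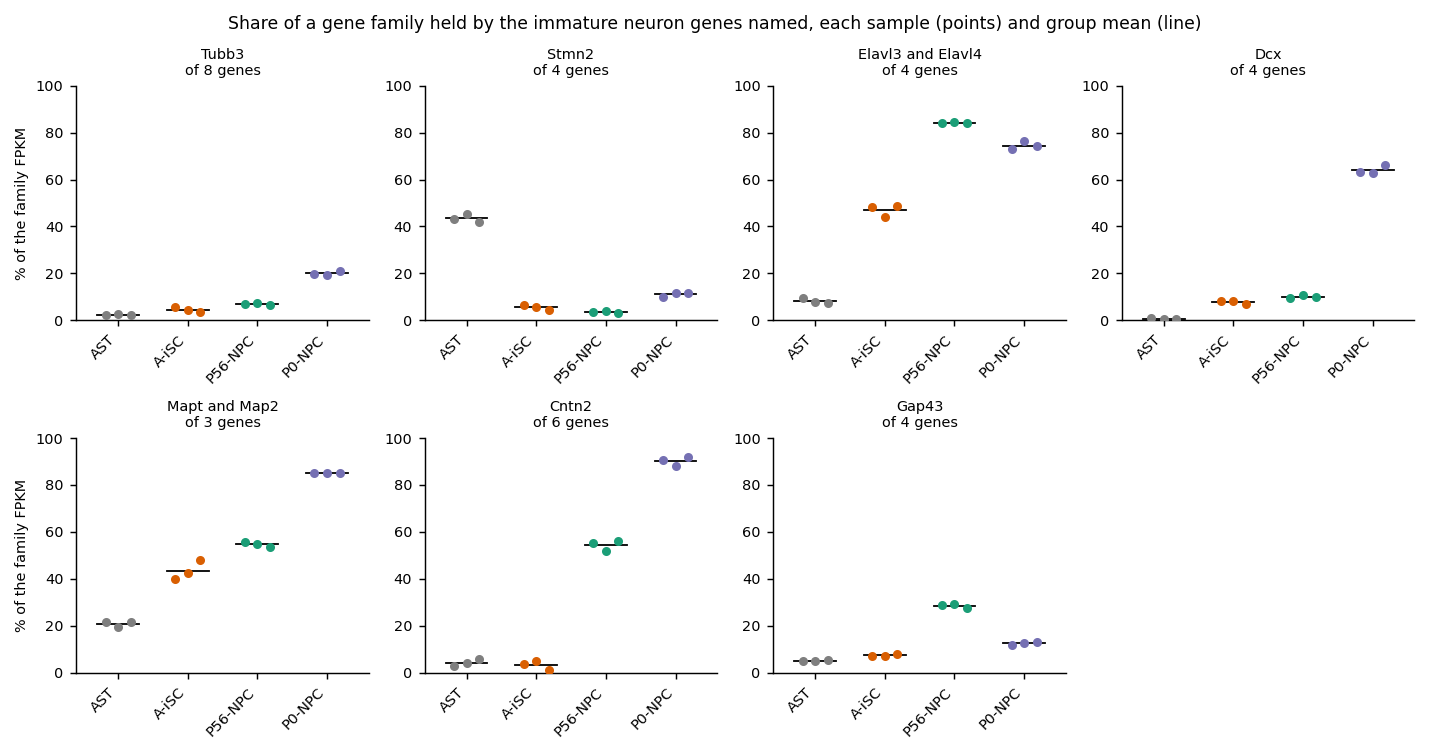
Share of a family's summed FPKM, in percent, held by the immature neuron gene or genes named above each panel, with 1 point per sample and a line at the group mean. Elavl3 with Elavl4, Dcx, and Mapt with Map2 take larger shares in A-iSCs than in ASTs, Stmn2 a smaller one, and the shares of Cntn2 overlap.

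The genes whose profiles over the 12 samples were most like the mean profile of the 10 were looked for among 9687 other protein-coding genes with a mean of at least 5 FPKM in at least 1 group. Likeness was the root mean square distance between profiles of log2(FPKM + 1) scaled to mean 0 and SD 1, which cannot exceed 2 and had a median of 1.52 over these genes. The 10 nearest genes, at distances from 0.0446 to 0.0976, were Mpped1, Myt1l, Add2, Unc5a, Ppfia2, Bcl11b, Bmp7, Syt16, Rundc3b and Rbfox1. Mpped1 had means of 0.0654 FPKM in ASTs, 0.779 in A-iSCs, 10.4 in P56-NPCs and 51.7 in P0-NPCs. Among the 10 genes themselves, Gap43 lay nearest to the mean profile, at 0.167, and Stmn2 farthest from it, at 0.984, followed by Map2 at 0.560. The closest pair was Mapt and Elavl3, at 0.0987, then Gap43 and Cntn2, at 0.155, Elavl4 and Mapt, at 0.160, and Tubb3 and Islr2, at 0.199.

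Other genes of newborn and migrating neurons were counted in the same comparisons. Of 30 such genes, 28 were higher and 0 lower in P0-NPCs than in ASTs by limma, where 38.1% of all genes were higher and 40.9% lower. Of the 28, 8 had AST means under 1 FPKM and passed the filter only through P0-NPCs, so the 28 is a description. Between the positive controls 24 were higher and 2 lower in P0-NPCs than in P56-NPCs, where 39.0% of all genes were higher and 39.7% lower. Of the 24, 3 had P56-NPC means under 1 FPKM and passed the filter only through P0-NPCs, so the 24 is a description too. The 2 lower genes were Stmn4 (-1.68, adjusted p = 3.87e-06) and Celf4 (-1.76, adjusted p = 3.07e-05), a splicing regulator of neurons, the latter chosen after its values were seen. In A-iSCs compared with ASTs 23 of the 30 were tested, with 12 higher and 6 lower, beside 25.2% higher and 29.6% lower over all genes. Of the 12, 1 had an AST mean under 1 FPKM and passed the filter only through A-iSCs, so the 12 is a description as well. Nrep rose most, by 2.49 (adjusted p = 2.04e-05), from 5.84 to 37.6 FPKM, and Basp1, the growth cone relative of Gap43, was lowest, at -1.34 (adjusted p = 0.000888). Among the highest, Tuba1a, a tubulin of growing neurons, was 989 FPKM in ASTs against 554 FPKM in A-iSCs (-0.84, adjusted p = 0.00616), and Tubb2b 346 and 239 FPKM (-0.53, adjusted p = 0.0153). Marcksl1 was 102 FPKM in ASTs against 181 FPKM in A-iSCs (0.83, adjusted p = 0.00333), and Stmn1 60.0 and 89.0 FPKM (0.57, adjusted p = 0.00907). Neurod2, a transcription factor of glutamatergic neurons, had 0 fragments in every AST and A-iSC sample, where 3 fragments on a gene of 1 kilobase would be 0.103 to 0.187 FPKM, and stood at 1.40 FPKM ± 0.16 in P56-NPCs and 84.4 FPKM ± 11.5 in P0-NPCs.

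Genes that act with the 10 genes were counted in the same way, and their counts are descriptions for the same reason, with the genes that passed the filter only through the higher group given for each list. Over all genes tested against ASTs, 38.1% were higher and 40.9% lower in P0-NPCs, and 25.2% higher and 29.6% lower in A-iSCs. Of 16 kinases and phosphatases that act on tau or doublecortin, 12 were higher and 2 lower in P0-NPCs than in ASTs, and 4 were higher and 3 lower in A-iSCs, where 15 were tested. Among those higher, 1 in P0-NPCs and 0 in A-iSCs had AST means under 1 FPKM. The count of lower kinases and phosphatases in A-iSCs was 1 without AST replicate 1, 2 or 3 or A-iSC replicate 2, and 5 without A-iSC replicate 3. Cdk5r1, the activator of the kinase Cdk5, rose most in both, by 5.96 (adjusted p = 1.41e-08) in P0-NPCs and by 1.71 (adjusted p = 2e-05) in A-iSCs, from 1.04 FPKM in ASTs to 5.67 in A-iSCs and 127 in P0-NPCs. The phosphatase subunit Ppp2r2a was lowest in both, at -0.42 (adjusted p = 0.00601) and -0.61 (adjusted p = 0.00225). Of 16 other microtubule-associated and motor genes, 9 were higher and 4 lower in P0-NPCs and 4 were higher and 4 lower in A-iSCs, among 15 tested in each. Of those higher, 2 in each comparison had AST means under 1 FPKM. Without A-iSC replicate 3, 7 of these were lower in A-iSCs. With all samples, the A-iSC counts of this list and of the kinases and phosphatases were near the shares over all genes. The axonal kinesin Kif5a had the largest difference from ASTs in P0-NPCs, 4.33 (adjusted p = 1.87e-08), and its highest mean in P56-NPCs, 1386 FPKM ± 231. Among growth cone substrates of protein kinase C with calmodulin, 8 of 10 tested were higher and 1 lower in P0-NPCs, and 2 of 9 higher and 4 lower in A-iSCs, and 2 and 1 of those higher had AST means under 1 FPKM. Of the 16 adhesion partners and relatives of Cntn2 and Islr2, 6 of 9 tested were higher and 2 lower in P0-NPCs, and 4 of 7 were higher and 1 lower in A-iSCs. Of those higher, 5 in P0-NPCs and 2 in A-iSCs had AST means under 1 FPKM. The lower one in A-iSCs was no longer called without AST replicate 1 or 3 or A-iSC replicate 1 or 2, and 1 instead of 2 were lower in P0-NPCs without any 1 AST sample or without P0-NPC replicate 1 or 3. L1cam, a partner of contactins on axons, was 0.147 FPKM in ASTs, 0.203 in A-iSCs, 1.88 in P56-NPCs and 20.7 in P0-NPCs.

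Markers of mature neurons were set beside the immature ones, since Mapt, Map2 and the Elavl genes are made in both. Of 14 mature neuron markers, 11 of 13 tested were higher and 1 lower in P0-NPCs than in ASTs, where 38.1% of all genes were higher and 40.9% lower. Of the 11, 9 had AST means under 1 FPKM and passed the filter only through P0-NPCs, so the 11 is a description. Between the positive controls, where all 14 were tested and 39.0% of all genes were higher and 39.7% lower, 1 was higher and 11 lower in P0-NPCs, against 9 higher and 1 lower of the 10 immature neuron genes. Their summed FPKM was 713 to 827 in P56-NPCs and 158 to 186 in P0-NPCs. Camk2a, a kinase of glutamatergic synapses, was 391 FPKM ± 24.5 in P56-NPCs and 6.404 FPKM ± 2.49 in P0-NPCs. In ASTs the sum was 71.6 to 75.1 FPKM, of which Thy1, which is not limited to neurons, held 48.8 FPKM and Vamp2 14.7 FPKM, while the defining markers Rbfox3 and Snap25 were at 0.0268 and 0.0912 FPKM. In A-iSCs the sum was 40.6 to 43.5 FPKM, with Rbfox3 at 0.145 FPKM and Snap25 at 0.392 FPKM. Without Thy1 the sum of the other 13 markers was 22.2 to 25.5 FPKM in ASTs and 30.2 to 35.4 FPKM in A-iSCs. Of the 6 markers tested between the cultures 3 were higher and 2 lower, beside 25.2% higher and 29.6% lower over all genes. Gad1, the enzyme that makes the transmitter GABA, rose from 0.172 FPKM in ASTs to 1.71 FPKM in A-iSCs (1.18, adjusted p = 0.00165), and Thy1 fell to 8.62 FPKM (-2.38, adjusted p = 2.16e-05). The synaptic vesicle genes Syp (1.10, adjusted p = 0.000165) and Vamp2 (0.54, adjusted p = 0.0217) were higher in A-iSCs, and the neurofilament gene Nefm was lower (-1.06, adjusted p = 0.0002). Gad1 and Syp had AST means under 1 FPKM and Nefm an A-iSC mean under it.

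**Figure D5:**
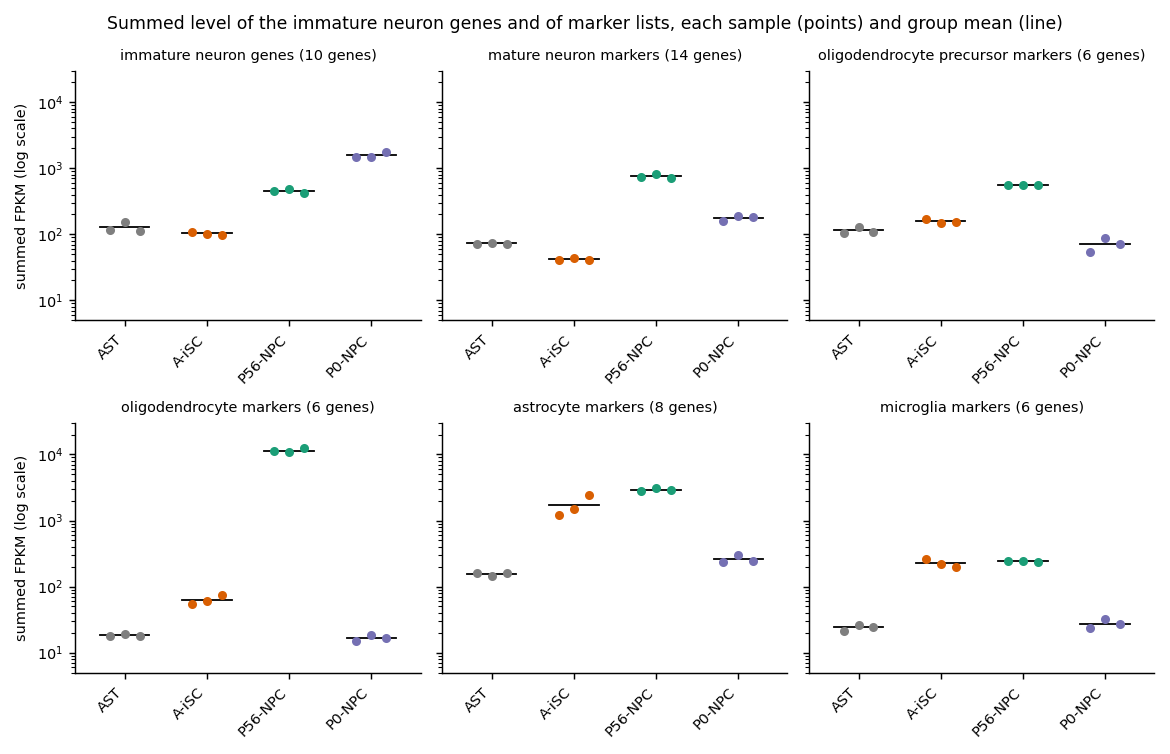
Summed FPKM on a log axis of the 10 immature neuron genes and of 5 lists of markers, with 1 point per sample and a line at the group mean. The immature neuron genes are highest in P0-NPCs, whereas mature neuron, oligodendrocyte precursor, oligodendrocyte and astrocyte markers are highest in P56-NPCs and microglia markers are raised in both A-iSCs and P56-NPCs.

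The other markers gave the makeup around these values in the brain samples. Over all genes tested between these 2 groups, 39.0% were higher in P0-NPCs and 39.7% lower. Compared with P56-NPCs, P0-NPCs were lower in 8 of 8 astrocyte, 6 of 6 oligodendrocyte precursor, 6 of 6 oligodendrocyte and 6 of 6 microglia markers and in 4 of 5 ependymal ones. They were higher in 5 of 5 endothelial, 4 of 5 mural and fibroblast and 5 of 5 proliferation markers. Of these higher markers, 4, 1 and 2 had P56-NPC means under 1 FPKM, and of the lower ones at most 2 in a list had P0-NPC means under it. Mbp, a main protein of myelin, was 5271 FPKM ± 347 in P56-NPCs and 1.85 FPKM ± 0.14 in P0-NPCs. The defining endothelial gene Cldn5 was 1.99 FPKM ± 0.24 in P56-NPCs and 50.8 FPKM ± 2.24 in P0-NPCs. The part of these cells in the levels of the immature neuron genes was not tested.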

How the data were processed

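The 12 RNA-seq libraries (3 per group) were made with a NEBNext Ultra kit. The authors deposited 1 table of FPKM with 55862 genes, which also lists gene lengths. The table does not name its unit: multiplied by gene length, all values of a sample were whole multiples of 1 step (within 0.01), so the unit was read from the values and fragments were recovered. The library size behind the FPKM was 0.744 to 1.218 times the fragments, which shows a scaling between samples by the authors. The submitters' processing notes name Bowtie 0.12.2 and build mm8, but of the 55240 genes whose identifiers GENCODE M21 also lists, start and end agreed to the base for 54985, on GRCm38, the build printed here. A floor of 3 fragments was 0.103 to 0.187 FPKM for a gene of 1 kilobase and covers counting error only. Whether counting used strand is not given in the sources used here.

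Groups were compared in pairs by limma 3.58.1 in R 4.3.3 (lmFit, eBayes with trend) on log2(FPKM + 1), keeping genes whose mean reached 1 FPKM in either group, with Benjamini-Hochberg adjustment over all of them and calls at an adjusted p under 0.05. DESeq2, which the methods of the study name, was not run, since the deposited values are FPKM, and limma-voom was run on the recovered fragments as the count-based alternative. On simulated data the test called 191 of 198 changed and 21 unchanged genes among 12585 for A-iSCs against ASTs. Family shares were compared by exact two-sided permutation tests in Python 3.11.15 with scipy 1.17.1. Figures were drawn with matplotlib 3.10.9. Alternatives were a pseudocount of 0.1, no filter, scaling by library size alone, upper-quartile scaling, a joint model of the 4 groups, a block for the replicate number, leaving out each sample, limma-voom and, for shares, recovered fragments. The 10 genes and all lists were chosen with earlier results of these data known. Genes were named by a rule: the 10 genes, their families, Rest, the 10 nearest profiles, and of each list the 4 most abundant and those with the largest and smallest called difference of A-iSCs and of P0-NPCs from ASTs. Snap25, Syp, Nefm and Celf4 fall outside it and were chosen after their values were seen. All columns of samples were used.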

Additional observations from a re-analysis of the deposited data

How the results depend on the processing

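Of the differences of the 10 genes recomputed under the alternatives, 737 kept their direction and their side of the threshold, 7 were no longer called, 5 became called and 5 reversed. Of the counts over lists, 2236 were within 1.5 times the reported count and 104 were not. Those that reversed belong to differences that were not called: Tubb3 in A-iSCs against ASTs became 0.0987 with scaling by library size alone, 0.0791 with upper-quartile scaling and ranged from -0.270 to 0.101 when single samples were left out, above 0 without AST replicate 2 (0.0625) or A-iSC replicate 3 (0.101), and Dcx in P56-NPCs against A-iSCs became -0.252 with scaling by library size alone (adjusted p = 0.0503). With that scaling 0 of the 10 genes were called lower in P0-NPCs than in P56-NPCs, where Map2 alone had been. It put the median of all genes between -0.49 (P56-NPCs against A-iSCs) and 0.53 (P0-NPCs against P56-NPCs), and the calls over all genes, higher and lower, became 9428 and 3438 in place of 6011 and 6115 for P0-NPCs against P56-NPCs, 2857 and 8329 in place of 4643 and 4532 for P56-NPCs against A-iSCs, 4569 and 7559 in place of 5924 and 6032 for P56-NPCs against ASTs, 7106 and 4860 in place of 5713 and 6146 for P0-NPCs against ASTs, and 4563 and 2989 in place of 3550 and 4165 for A-iSCs against ASTs, where upper-quartile scaling gave 4353 and 3074. The difference in the share of Cntn2 between A-iSCs and ASTs, -0.809 percentage points, ranged from -1.67 to 0.239 when single samples were left out, with the latter without A-iSC replicate 3. Gap43 in A-iSCs against ASTs was no longer called when AST replicate 1 or 3 was left out (adjusted p of 0.154 and 0.140) or A-iSC replicate 1 or 2 (0.0840 and 0.101), and Map2 was called there with 5 alternatives, among them upper-quartile scaling (0.72, adjusted p = 0.0275). Deviations from the group mean were compared between samples with the same replicate number. In 0 of 6 group pairs was every correlation over 0.1 (range -0.378 to 0.427). Between ASTs and A-iSCs the correlations were -0.378, 0.335 and 0.427 for replicates 1 to 3. With the replicate block, the counts called in A-iSCs against ASTs were 5 higher and 1 lower, with Gap43 no longer called (adjusted p = 0.0569) and Map2 called (adjusted p = 0.0329). The low AST levels of Cntn2, Elavl4 and Dcx rest on under 25 fragments a sample, which limits their ratios. The cause of these changes was not tested.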

Other observations

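Rest, the repressor that holds neuronal genes off in other cells, and the partners of its complex were measured in the same samples. Rest stood at 8.38 FPKM ± 0.25 (SD, n = 3) in ASTs, 5.95 FPKM ± 0.40 in A-iSCs, 2.11 FPKM ± 0.22 in P56-NPCs and 5.85 FPKM ± 0.54 in P0-NPCs. By limma it was lower in A-iSCs than in ASTs by a log2(FPKM + 1) difference of -0.43 (adjusted p = 0.0089), and lower in P0-NPCs than in ASTs, at -0.46 (adjusted p = 0.00157). In P0-NPCs, the group with the highest level of 9 of the 10 immature neuron genes, Rest was higher than in P56-NPCs, by 1.14 (adjusted p = 1.29e-05). Of 13 genes of the complex 12 were tested against ASTs, with 4 higher and 3 lower in A-iSCs and 6 higher and 3 lower in P0-NPCs. Over all genes tested 25.2% were higher and 29.6% lower in A-iSCs, and 38.1% higher and 40.9% lower in P0-NPCs, so the counts in A-iSCs are near the background. The lower count in A-iSCs was 2 without AST replicate 1 or 3, and the higher count 6 without A-iSC replicate 3. The corepressor gene Rcor2, under 1 FPKM in ASTs and the only such gene among those higher, had the largest difference in both, from 0.336 FPKM in ASTs to 2.82 FPKM in A-iSCs (1.51, adjusted p = 2.94e-05) and 47.5 FPKM in P0-NPCs (5.17, adjusted p = 2.36e-08). The histone deacetylase gene Hdac1 was lowest in P0-NPCs relative to ASTs, at -1.25 (adjusted p = 4.11e-06), and Hdac2 in A-iSCs, at -0.66 (adjusted p = 0.00785).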
